A study of Mus musculus with 35 samples.

Results

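The genes of oxidative phosphorylation were taken from the RNA-seq table of hematopoietic stem and progenitor cells (HSPCs) by their names alone, as every entry named for a subunit of NADH dehydrogenase (Nduf followed by a, b, c, s or v and a number), succinate dehydrogenase (Sdha to Sdhd), the cytochrome bc1 complex (Uqcr and Cyc1), cytochrome c (Cycs), cytochrome c oxidase (Cox4 to Cox8) or ATP synthase (Atp5). The names selected 80 of the 11982 genes in the table, 77 of them subunits of a complex or cytochrome c. The other 3 carry an older name but are not subunits, namely Cox4nb, now called Emc8 and part of a complex of the endoplasmic reticulum, and Atp5s and Atp5sl. No expression value was used in the choice. All 80 genes passed the filter on low values.

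The libraries came from bone marrow HSPCs of mice of the strain 129P2xC57BL/6J, either wild type (WT) or homozygous for a gene-trap knockout of JMJD1B, which was made from 129P2 embryonic stem cells and is carried in the germline by all cells of the animal. JMJD1B, encoded by Kdm3b, is a histone demethylase, and the study compared WT and knockout HSPCs to find which genes depend on it. The study names age-matched littermates for its ChIP-seq, and its main text does not say so for the RNA-seq. PolyA RNA was sequenced from 2 biological replicates of each genotype, and values are given below with replicate 1 before replicate 2. Mice of both sexes were used in the study, and the labels do not give the sex or the number of the mice behind each RNA library. Xist, a transcript of female cells, was high only in WT replicate 2 (332 RPKM), and the part of sex in the values below was not tested. The values are RPKM, read numbers scaled to transcript length and to library size, so levels of different genes can be set side by side.

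Oxidative phosphorylation takes place in the inner mitochondrial membrane. Complexes I and II take electrons from NADH and succinate and pass them through ubiquinone to complex III, and cytochrome c carries them on to complex IV, where oxygen is reduced. Complexes I, III and IV pump protons out of the matrix, and complex V, the ATP synthase, lets them back in through a rotating ring of c subunits to make ATP. Most subunits are encoded in the nucleus, but the electron and proton paths of complexes I, III, IV and V also need subunits encoded by mitochondrial DNA, which are not analysed here. Quiescent hematopoietic stem cells are known for relying little on this pathway, and progenitors that divide and mature for using it more.

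The transcript of the targeted gene was low in the knockout libraries. Kdm3b stood at 31.0 and 24.3 RPKM in WT and at 4.00 and 4.63 RPKM in JMJD1B-/- HSPCs, or 15.6% of the WT mean (limma, adjusted p = 0.0314). JMJD1B-/- replicate 1 was the shallowest library, with an estimated 6100000 reads against 17500000, 24600000 and 21000000 in WT replicates 1 and 2 and JMJD1B-/- replicate 2, and 3 reads on a transcript of 1 kilobase stand for 0.491 RPKM in it and for 0.122 to 0.171 RPKM in the others. Among stem and progenitor markers, Kit stood at 66.9 and 62.5 RPKM in WT and at 51.6 and 92.7 RPKM in the knockout. Procr was low throughout, at 1.47 and 0.615 against 0.543 and 0.18 RPKM. The log2 fold change was below 0 in 12 of the 15 markers, with a median of -0.62, against -0.02 over all genes tested. Several lists of other lineages also differed between the libraries. Of 11 erythroid markers, none at 0 in any library, 9 passed the test described below as higher in the knockout, and their summed level was 727 and 1040 RPKM in WT against 1920 and 2610 RPKM in the knockout. Of 15 stem and progenitor markers, 5 were lower, among them Cd34, which stood at 42.9 and 43.5 against 20.9 and 11.7 RPKM, and 5 of 7 megakaryocyte, 6 of 9 granulocyte, 5 of 8 basophil, eosinophil and mast cell, 2 of 5 monocyte, 2 of 6 stromal and endothelial markers and the 1 B cell marker tested were lower. Of all genes tested, 3.81% were higher and 6.33% lower. In the granulocyte list 2 were higher, and of 8 T and NK cell markers 2 were higher and 1 lower. Some of these values followed single libraries and not the genotype. The summed T and NK cell level was 26.3 and 35.3 RPKM in WT and 88.5 and 21.1 RPKM in the knockout, and the stromal genes Col1a1 (15.7 RPKM) and Cxcl12 (5.92 RPKM) were highest in WT replicate 2. Prg2, an eosinophil gene, followed the replicate number, at 5380 and 988 RPKM in WT and 4330 and 1080 RPKM in the knockout. Of 20 proliferation genes 4 were higher (Rrm2, Mcm5, Rrm1 and Ccna2) and none lower. All 20 had a log2 fold change above 0, with a median of 0.30, where 47.0% of all genes tested were above 0. Both knockout libraries were above WT in 16 of them, against 20.1% of all genes tested. The summed levels of the 20 genes were 1380 and 1610 RPKM in WT and 1750 and 1840 RPKM in the knockout. In bulk RNA, a change in the share of a cell type cannot be told apart from a change in RNA per cell, and the part of these shifts in the values below was not tested.

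Most oxidative phosphorylation genes had higher RPKM in the knockout, by a small amount. The log2 fold change of JMJD1B-/- over WT was above 0 in 67 of 80 genes (83.8%), against 47.0% of the 11863 genes tested, and its median was 0.28 against -0.02 over all genes tested. Of the 80 genes, 15 (18.8%) were higher at an unadjusted p under 0.05, the threshold the study used, where the share over all genes was 3.81%. Only Atp5e (1.25%) was lower, where the share over all genes was 6.33%. None of the 80 passed at a Benjamini-Hochberg adjusted p under 0.05 (limma, adjusted p from 0.204 to 0.996), which 5 genes of the table did, 0.0421% of those tested. The knockout libraries both exceeded the higher WT library in 38 of the 80 genes (47.5%, against 20.1% of all genes tested), and both fell short of the lower one in 3, Atp5e, Cox7a2l and Atp5s (3.75%, against 22.7%).

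The knockout libraries did not carry this difference equally. The summed level of the 80 genes was 3990 and 4440 RPKM in WT and 4470 and 5600 RPKM in JMJD1B-/- HSPCs, so that JMJD1B-/- replicate 1 lay just above WT replicate 2. Summed RPKM over all genes tested also differed, at 394000 and 379000 in WT and 400000 and 443000 in the knockout. Against the WT mean, the median log2 difference of the 80 genes was 0.09 in JMJD1B-/- replicate 1 and 0.44 in replicate 2, where that of all genes was -0.10 and 0.09. JMJD1B-/- replicate 1 lay above both WT libraries in 39 of the 80 genes and below both in 28, and JMJD1B-/- replicate 2 lay above both in 73 and below both in 3. Of the 11863 genes tested, JMJD1B-/- replicate 1 lay above both in 3508 and below both in 5816, and replicate 2 above both in 5517 and below both in 3942. The WT libraries differed as well, and WT replicate 2 was the higher of the pair in 61 of the 80 genes, by a median log2 difference of 0.16, and in 6006 of all 11863, by 0.01. Without JMJD1B-/- replicate 2, 12 genes were higher and 10 lower, and the median was 0.09, where 6.13% of all genes tested were higher and 15.3% lower. Without JMJD1B-/- replicate 1, 41 were higher and 1 lower, and the median was 0.44, where 10.6% of all genes were higher and 11.0% lower. Without WT replicate 1 the count of higher genes was 2 (Ndufb4 and Atp5g1), where 1.04% of all genes were higher.

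**Figure D1:**
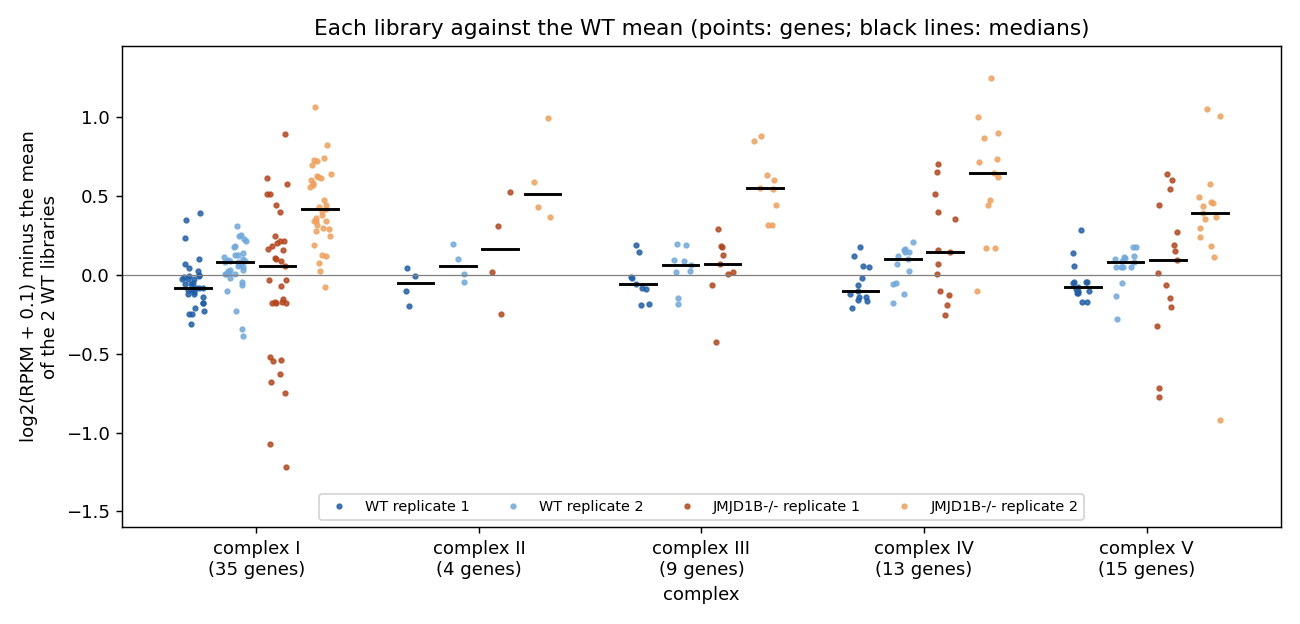
Each point is a gene of complexes I to V in 1 library, as log2(RPKM + 0.1) minus the mean of the 2 WT libraries, and black lines are medians. In each complex the median of JMJD1B-/- replicate 2 is the highest, from 0.39 in complex V to 0.65 in complex IV, while that of JMJD1B-/- replicate 1 lies from 0.05 in complex I to 0.16 in complex II.

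Complex I, the NADH dehydrogenase, had 35 genes in the table, of which 5 were higher at an unadjusted p under 0.05 and none lower (14.3% and 0%, against 3.81% and 6.33% of all genes). The median log2 fold change was 0.23, and 27 of 35 were above 0. All 5 encode accessory subunits, which surround the catalytic core and stabilise it. Ndufb4, in the membrane arm, stood at 29.1 and 26.5 RPKM in WT and at 51.6 and 49.3 RPKM in JMJD1B-/- HSPCs, and the groups were well apart. Its log2 fold change was 0.86 (SE 0.18), the highest of the 80 genes (limma, adjusted p = 0.204). Ndufc2, another membrane arm subunit, stood at 18.6 and 25.6 RPKM in WT and at 33.5 and 45.8 RPKM in the knockout, with a log2 fold change of 0.84 (SE 0.24). Leaving out any 1 library gave a log2 fold change of 0.61 to 1.07 for Ndufc2, and its groups did not overlap.

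Ndufb9, also of the membrane arm and the most abundant complex I transcript, stood at 93.2 and 107 RPKM in WT and at 142 and 151 RPKM in the knockout, 147% of the WT mean. In the matrix arm, Ndufa12 stood at 39.4 and 50.3 against 60.6 and 69.5 RPKM (log2 fold change 0.54, SE 0.20). Ndufa5, in the same arm, stood at 25.7 and 39.6 against 47.6 and 52.9 RPKM, and its WT libraries lay farther apart than its knockout libraries. In all 3 genes every knockout library was above every WT library.

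The 7 core subunits of complex I in the table, which hold the flavin and the iron-sulfur clusters or form the site where ubiquinone binds, had no gene that passed the test. Their median log2 fold change was 0.21, against 0.27 for the 28 accessory subunits. Ndufv2, which holds an iron-sulfur cluster, came nearest, at 44.8 and 50.2 RPKM in WT and 55.1 and 65.8 RPKM in the knockout (limma, adjusted p = 0.582). Ndufs1, with the largest set of clusters, stood at 44.0 and 56.5 against 56.5 and 60.6 RPKM, and the higher WT and the lower knockout library were level. Ndufs7, at the last cluster before ubiquinone, stood at 33.1 and 37.4 against 37.5 and 44.6 RPKM, with barely a gap between the groups. Ndufv1, which binds NADH and the flavin, stood at 48.5 and 54.3 against 50.1 and 62.7 RPKM, and Ndufs8 at 23.3 and 23.7 against 20.8 and 25.7 RPKM. In Ndufv1 and Ndufs8 the groups overlapped.

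Ndufb5, named after its values were seen, had the lowest log2 fold change of the complex, -0.57 (SE 0.31), with 44.6 and 50.9 RPKM in WT and 22.6 and 45.2 RPKM in the knockout. Without JMJD1B-/- replicate 1 its log2 fold change was -0.08.

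**Figure D2:**
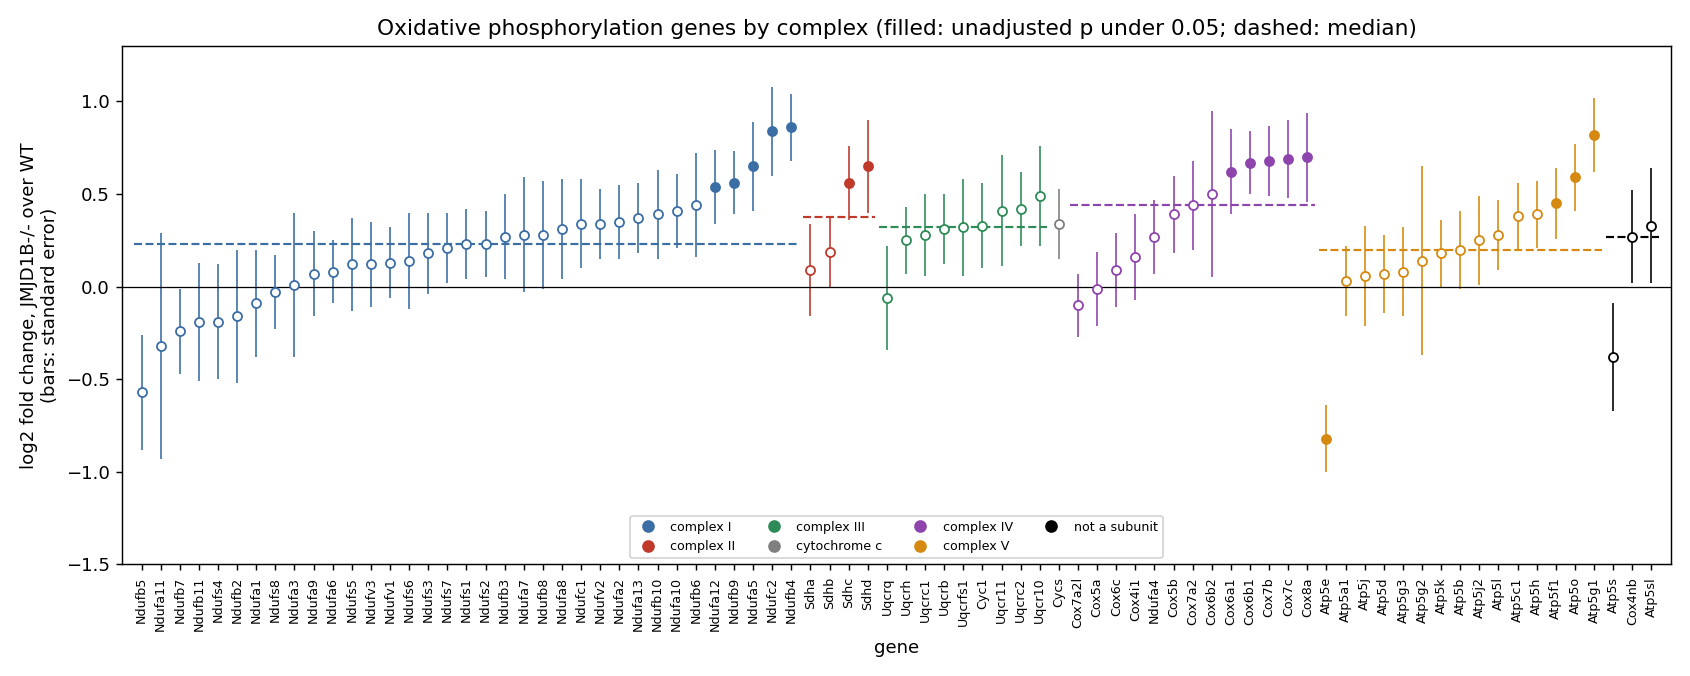
Each point is the log2 fold change of JMJD1B-/- over WT of 1 gene with its standard error, grouped by complex and sorted within it, with filled points for genes at an unadjusted p under 0.05 and dashed lines for the medians. Most points lie above 0 and filled points sit at the upper end of complexes I, II, IV and V, while Atp5e is the 1 filled point below 0, at -0.82.

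Complex II, succinate dehydrogenase, is the enzyme shared by the respiratory chain and the citric acid cycle, and its 4 subunits are all encoded in the nucleus. The log2 fold changes of the catalytic subunits Sdhb and Sdha were 0.19 (SE 0.19) and 0.09 (SE 0.25), below those of the membrane anchors. Sdhc and Sdhd, which anchor the enzyme and bind ubiquinone and heme, were both higher at an unadjusted p under 0.05. The share of higher genes over all genes tested was 3.81%. Sdhc stood at 25.3 and 33.2 RPKM in WT and at 41.7 and 43.6 RPKM in the knockout (log2 fold change 0.56, SE 0.20). Sdhd stood at 39.7 and 37.3 against 47.6 and 76.8 RPKM (log2 fold change 0.65, SE 0.25), and its knockout libraries were far apart, with the log2 fold change at 0.31 without JMJD1B-/- replicate 2. The iron-sulfur subunit Sdhb stood at 50.2 and 50.7 against 51.1 and 65.1 RPKM, so that JMJD1B-/- replicate 1 was close to WT. For Sdha, the flavoprotein that oxidises succinate, the groups overlapped at 62.2 and 71.7 against 56.2 and 90.1 RPKM. No test of the anchors against the catalytic subunits was made.

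Complex III, the cytochrome bc1 complex, had 9 genes, none of which passed the test, although 8 had a log2 fold change above 0 and the median was 0.32. Uqcrc2, a core protein of its matrix side, had the lowest p, with 43.1 and 55.9 RPKM in WT and 60.2 and 71.5 RPKM in the knockout (limma, adjusted p = 0.547). Uqcr10, a small subunit, stood at 31.7 and 24.5 against 30.4 and 50.3 RPKM, and only JMJD1B-/- replicate 2 was above both WT libraries. Uqcrh, the hinge protein that meets cytochrome c1 and the most abundant transcript of the complex, stood at 130 and 147 against 157 and 172 RPKM, with all knockout values above WT. Of the electron carriers, cytochrome c1 (Cyc1) stood at 24.2 and 24.8 against 25.7 and 37.2 RPKM. The Rieske iron-sulfur protein Uqcrfs1 stood at 29.1 and 37.9 against 33.4 and 51.5 RPKM, and here the groups overlapped. Cytochrome c itself (Cycs), which moves between complexes III and IV, stood at 30.1 and 33.6 against 37.6 and 43.2 RPKM, 127% of the WT mean (limma, adjusted p = 0.583).

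Complex IV, cytochrome c oxidase, had the highest median log2 fold change of the complexes, 0.44, and 5 of its 13 genes were higher at an unadjusted p under 0.05 (38.5%, against 3.81% of all genes). No test compared the complexes with each other. All 5 are small nuclear-encoded subunits that surround the catalytic core, which mitochondrial DNA encodes. Cox6b1, which faces the intermembrane space where cytochrome c docks, stood at 84.0 and 92.1 RPKM in WT and at 143 and 138 RPKM in the knockout (log2 fold change 0.67, SE 0.17, limma adjusted p = 0.273). Cox7b, which is on the X chromosome, stood at 29.0 and 36.0 against 50.7 and 53.0 RPKM (log2 fold change 0.68, SE 0.19). The libraries differed in Xist, which is transcribed from the inactive X chromosome of female cells and stood at 332 RPKM in WT replicate 2 and at 0.051 RPKM or less in the other libraries. The other X-linked genes, Ndufa1 and Ndufb11, had log2 fold changes of -0.09 and -0.19, which turned to 0.34 and 0.29 without JMJD1B-/- replicate 1, and the part of Xist in these values was not tested.

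Cox7c, a membrane-spanning subunit, stood at 93.7 and 118 RPKM in WT and at 150 and 192 RPKM in the knockout (log2 fold change 0.69, SE 0.21). Cox8a, a small subunit that crosses the membrane, stood at 30.0 and 27.8 against 38.0 and 57.9 RPKM. For Cox6a1, the form of subunit VIa used outside heart and skeletal muscle, the values were 30.6 and 37.2 against 43.1 and 62.9 RPKM. All 3 had every knockout library above every WT library, and in Cox8a and Cox6a1 JMJD1B-/- replicate 2 was clearly the higher of the pair.

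The larger nuclear-encoded subunits of complex IV did not pass the test. Cox4i1, the most abundant transcript of the complex and needed for its assembly, stood at 156 and 180 RPKM in WT and at 154 and 228 RPKM in the knockout. Cox5a stood at 61.3 and 74.6 against 59.1 and 76.2 RPKM, and both groups covered the same range. Cox5b, which binds zinc on the matrix side, stood at 50.7 and 60.0 against 61.6 and 84.9 RPKM, without overlap (limma, adjusted p = 0.585). Among genes that encode alternative forms of a subunit, Cox6b2, better known from testis, stood at 11.0 and 8.61 against 8.16 and 23.2 RPKM, far below Cox6b1 in RPKM. Cox7a2 stood at 31.3 and 26.4 against 31.8 and 47.9 RPKM, while Cox7a2l, a related protein that joins complexes III and IV into supercomplexes, stood at 99.3 and 102 against 93.9 and 93.9 RPKM, lower in both knockout libraries by a log2 fold change of -0.10 (SE 0.17). Ndufa4, named for complex I and later assigned to complex IV, stood at 74.7 and 69.5 against 75.6 and 100 RPKM. The alternative forms Cox4i2, Cox6a2, Cox7a1 and Ndufa4l2 are not analysed here.

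**Figure D3:**
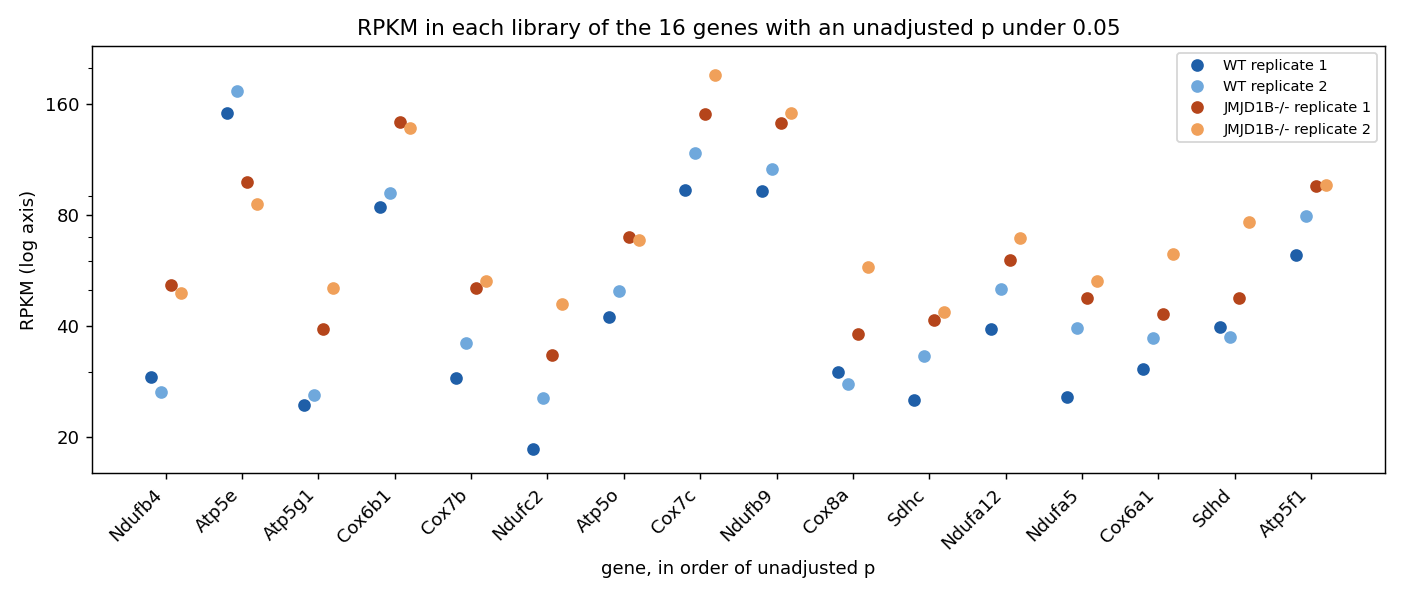
Each point is the RPKM of 1 library, on a log axis, for the 16 genes with an unadjusted p under 0.05, in order of p, with WT libraries in blue and JMJD1B-/- libraries in red and orange. In 15 genes both knockout points lie above both WT points, and in Atp5e (151 and 174 against 98.6 and 85.5 RPKM) they lie below.

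Complex V, the ATP synthase, had 15 genes. Its median log2 fold change was 0.20, and 14 of 15 genes were above 0, where 47.0% of all genes tested were above 0. At an unadjusted p under 0.05, 3 were higher, where the share over all genes was 3.81%. At the same threshold 1 was lower (6.67%, against 6.33% of all genes). The lower gene, Atp5e, encodes the epsilon subunit, which sits in the central stalk and helps to hold the c ring to the catalytic head. Atp5e stood at 151 and 174 RPKM in WT and at 98.6 and 85.5 RPKM in the knockout, 56.7% of the WT level on average. Its log2 fold change of -0.82 (SE 0.18) was the lowest of the 80 genes (limma, adjusted p = 0.223), and it ranged from -0.92 to -0.72 when any 1 library was left out.

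No other gene of the catalytic F1 head passed the test. Atp5b, the catalytic beta subunit and the most abundant of the 80 transcripts in WT, stood at 319 and 368 RPKM in WT and at 345 and 450 RPKM in the knockout. Atp5a1, the alpha subunit, stood at 262 and 307 against 272 and 307 RPKM (log2 fold change 0.03, SE 0.19). In both genes the groups overlapped, and under quantile normalization the log2 fold changes of Atp5b and Atp5a1 were -0.07 and -0.19. Over the 5 F1 genes the median was 0.07. The peripheral stalk, which keeps the head from turning with the rotor, held 2 of the 3 higher genes of complex V. Atp5o, which joins the stalk to the head, stood at 42.4 and 49.9 against 69.9 and 68.7 RPKM (log2 fold change 0.59, SE 0.18). Atp5f1, the b subunit of the stalk, stood at 62.4 and 79.5 against 95.8 and 96.6 RPKM (log2 fold change 0.45, SE 0.19, limma adjusted p = 0.486). This gene was no longer called under quantile normalization, without a variance trend or in a gene-by-gene test. Its log2 fold change was 0.28 without WT replicate 1. In both genes the knockout libraries were nearly level with each other.

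The c subunit of the rotating ring comes from 3 genes, Atp5g1, Atp5g2 and Atp5g3, whose proteins differ in the sequence that directs import into mitochondria but give the same mature subunit. Differences between the 3 genes were not tested. Atp5g1 stood at 24.5 and 26.1 RPKM in WT and at 39.3 and 50.9 RPKM in the knockout (log2 fold change 0.82, SE 0.20, limma adjusted p = 0.262), and the groups were apart. Atp5g2 stood at 29.8 and 24.6 against 15.8 and 56.2 RPKM, so that JMJD1B-/- replicate 1 was the lowest and JMJD1B-/- replicate 2 the highest of the 4 libraries. Atp5g3, with the highest RPKM of the 3 genes in every library, stood at 67.3 and 85.9 against 66.1 and 98.0 RPKM, and the groups overlapped. The sum over the 3 genes was 122 and 137 RPKM in WT and 121 and 205 RPKM in the knockout, so the total for the c subunit overlapped between the groups. Genes of this family share sequence with each other and with processed pseudogenes, and how reads that match several places were assigned is not given in the sources used here, so their separate values are uncertain.

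The bases before the start of the 3 c subunit genes and of Atp5e are shown because these genes differed in direction or in whether the groups overlapped. Each is the 250 bases before the start in RefSeq on GRCm38.p6, read on the strand of the gene, which is the minus strand for all 4, at chr11:96075632-96075881, chr15:102671048-102671297, chr2:73911327-73911576 and chr2:174464102-174464351. Capitals mark CCAAT on either strand in Atp5g1, Atp5g3 and Atp5e, and in Atp5g2 the letters GCGCATGC, which the factor NRF1 binds, on both strands.
Atp5g1: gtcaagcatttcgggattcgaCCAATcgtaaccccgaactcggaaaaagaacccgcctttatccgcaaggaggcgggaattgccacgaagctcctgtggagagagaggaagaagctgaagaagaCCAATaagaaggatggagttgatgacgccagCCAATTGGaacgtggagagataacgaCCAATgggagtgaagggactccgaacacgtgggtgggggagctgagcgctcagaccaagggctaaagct
Atp5g2: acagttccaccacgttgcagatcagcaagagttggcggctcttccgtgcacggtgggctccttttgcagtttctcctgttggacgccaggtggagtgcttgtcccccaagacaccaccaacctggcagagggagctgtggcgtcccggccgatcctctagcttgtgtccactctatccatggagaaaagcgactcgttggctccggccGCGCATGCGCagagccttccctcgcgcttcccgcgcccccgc
Atp5g3: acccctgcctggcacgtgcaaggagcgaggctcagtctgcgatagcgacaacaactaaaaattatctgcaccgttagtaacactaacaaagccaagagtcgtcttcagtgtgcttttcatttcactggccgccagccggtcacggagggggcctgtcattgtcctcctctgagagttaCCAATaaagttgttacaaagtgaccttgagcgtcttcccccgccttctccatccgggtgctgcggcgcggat
Atp5e: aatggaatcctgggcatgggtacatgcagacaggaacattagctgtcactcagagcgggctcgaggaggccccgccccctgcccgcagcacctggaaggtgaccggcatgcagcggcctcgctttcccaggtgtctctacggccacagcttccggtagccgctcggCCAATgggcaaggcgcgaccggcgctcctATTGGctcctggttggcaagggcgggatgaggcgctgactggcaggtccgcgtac
Atp5g1 held 5 CCAAT matches, 4 on the strand of the gene and 1 on the opposite strand that overlaps its neighbour. Atp5e held 2, 1 on each strand, and Atp5g3 held 1. Of the 3 c subunit genes, Atp5g2 was the only one with the NRF1 letters.

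A longer window of 300 bases, 250 before and 50 after the start, was available from RefSeq for 67 of the 80 genes, 14 of them among the 16 genes called, and for 27025 genes in all. Shares over all genes in this paragraph refer to these 27025, which were not limited to the genes tested for expression. Letters known to be bound by regulators of respiratory genes were looked for on both strands. The NRF1 letters GCGCATGC were found in 11 of the 67 genes (16.4%) and in 3.05% of all genes. AAGATGGC, bound by YY1, was found in 11 (16.4%, against 3.19%), and CCGGAAG, bound by ETS factors such as GABPA, in 16 (23.9%, against 9.93%). TCAAGGTCA, bound by the estrogen-related receptors, was found in Atp5g3 and Sdhd (2.99%, against 0.466%), and CCAAT in 30 (44.8%, against 41.1%). The genes called did not share 1 of these. Of the 14 with a window, 8 held CCAAT, 5 the ETS letters (Atp5e, Cox6a1, Cox6b1, Cox8a and Sdhd), and 1 each the NRF1, YY1 and estrogen-related receptor letters (Cox6a1, Atp5f1 and Sdhd). A match in letters is a description and does not show that a factor was bound.

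Cox6a1 was the only called gene with the NRF1 letters, and its 250 bases before the start are shown for that reason, from RefSeq on GRCm38.p6, minus strand, at chr5:115348959-115349208, with the overlapping NRF1 matches of both strands in capitals.
Cox6a1: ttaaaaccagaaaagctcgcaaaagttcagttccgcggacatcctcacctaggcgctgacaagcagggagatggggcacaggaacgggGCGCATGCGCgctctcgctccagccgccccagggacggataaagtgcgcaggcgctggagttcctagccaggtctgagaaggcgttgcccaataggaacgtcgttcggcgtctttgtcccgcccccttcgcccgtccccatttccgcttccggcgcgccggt

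The entries that match the names but are not subunits showed no common direction. Atp5s stood at 8.28 and 7.92 RPKM in WT and at 5.06 and 7.59 RPKM in the knockout, Atp5sl at 5.80 and 4.41 against 7.60 and 5.40 RPKM, and Cox4nb at 6.39 and 7.54 against 8.91 and 7.96 RPKM. None passed the test.

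Other genes of the pathway, listed by function, had a median between that of the oxidative phosphorylation genes and that of all genes. Of 122 listed genes 106 were tested, and 3 were higher and 1 lower at an unadjusted p under 0.05, none at an adjusted p under 0.05. Of all genes tested, 3.81% were higher and 6.33% lower, so the count of higher genes was near the background. The log2 fold change was above 0 in 78 of them, with a median of 0.19. Of 3 nuclear-encoded subunits whose names the rule does not match, Usmg5, a small ATP synthase subunit of the membrane, was higher, at 40.8 and 51.4 RPKM in WT and 83.4 and 68.0 RPKM in the knockout (log2 fold change 0.72, SE 0.20). Of 53 assembly factors, 1 was higher. This was Cox17, the chaperone that brings copper to complex IV, at 49.5 and 52.9 against 79.8 and 74.8 RPKM (log2 fold change 0.59, SE 0.17). Both genes had their knockout libraries apart from WT, and the median over the 53 assembly factors was 0.22. Of the factors with the lowest p for the other complexes, Ndufaf1 for complex I stood at 10.4 and 12.1 against 14.1 and 16.4 RPKM, Sdhaf2, which adds the flavin to Sdha, at 10.2 and 10.5 against 14.0 and 15.1 RPKM, and Tmem70 for complex V at 9.94 and 9.16 against 11.4 and 14.3 RPKM. AI462493, now called Uqcc3 and listed for complex III, stood at 16.2 and 10.1 against 5.90 and 10.1 RPKM. None of these 4 passed the test.

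Enzymes that feed the chain had a median close to that of the oxidative phosphorylation genes. Of 18 genes of pyruvate dehydrogenase and the citric acid cycle, 16 were above 0 with a median of 0.27, where 47.0% of all genes tested were above 0. Only 1 was higher, near the 3.81% of all genes tested. This was Pdhb, the beta subunit of the first enzyme of pyruvate dehydrogenase, at 24.6 and 25.5 against 34.0 and 38.4 RPKM (log2 fold change 0.53). None of 7 carriers and outer membrane channels passed, with a median of 0.26. The carrier with the lowest p was Slc25a5, which exchanges ADP for ATP, at 137 and 142 against 159 and 205 RPKM. None of 10 coenzyme Q synthesis genes passed either, and their median was 0.05. Coq9, with the lowest p of that list, stood at 13.4 and 12.8 against 19.3 and 15.5 RPKM.

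Of 15 regulators of mitochondrial gene expression 1 was lower, a share close to the 6.33% of all genes. This gene, Gabpb1, the partner that gives GABPA its activation domain, stood at 20.9 and 20.8 RPKM in WT and at 11.0 and 16.0 RPKM in the knockout (log2 fold change -0.65, SE 0.24, limma adjusted p = 0.438), and both knockout libraries were below WT. The log2 fold change of Gabpb1 was -0.38 without JMJD1B-/- replicate 1 and -0.92 without replicate 2, and the gene was no longer called without either WT library or without JMJD1B-/- replicate 1. GABPA itself (Gabpa) had a log2 fold change of 0.03 and the related partner Gabpb2 one of 0.19. The median over the 15 regulators was 0.18.

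**Figure D4:**
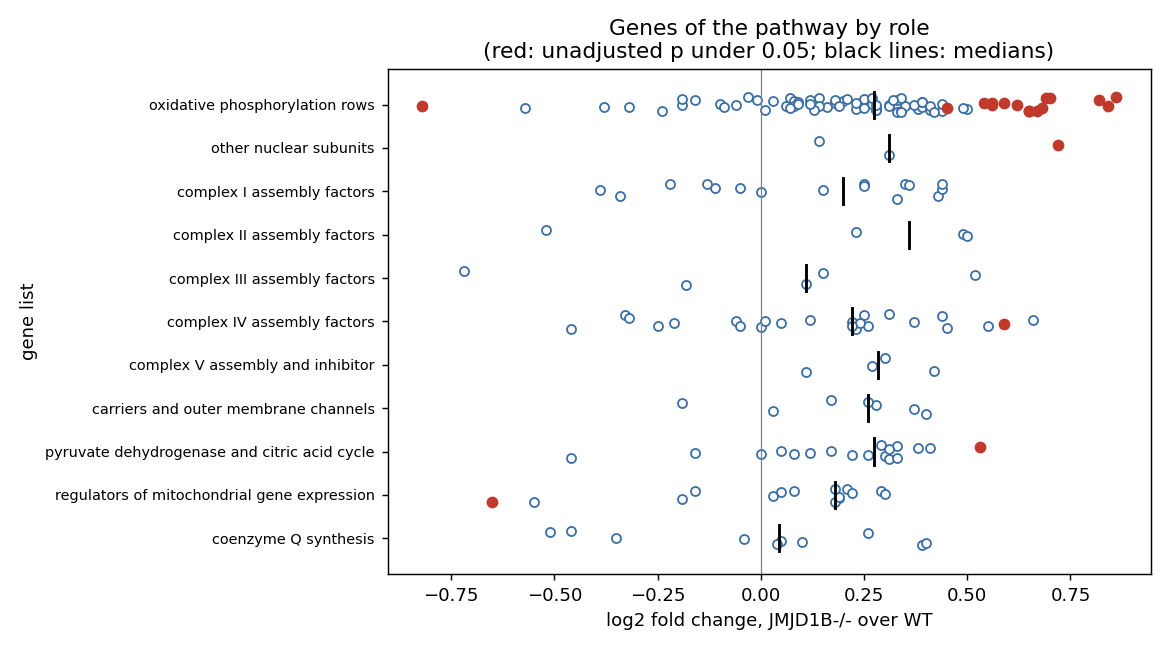
Each point is the log2 fold change of JMJD1B-/- over WT of 1 gene, in rows for the 80 oxidative phosphorylation genes and for the other lists of the pathway, with red points for an unadjusted p under 0.05 and black lines for medians. The medians lie from 0.05 for coenzyme Q synthesis to 0.36 for the complex II assembly factors, and outside the top row 4 genes are red (Usmg5, Cox17 and Pdhb above 0, Gabpb1 below).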

How the data were processed

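PolyA RNA libraries of 2 WT and 2 JMJD1B-/- HSPC samples were analysed, and the ChIP samples were not used here. The 1 processed file holds RPKM per gene and library as deposited by the authors, who had added 1 to each value, and this 1 was subtracted. The submitters' processing notes name TopHat2, Novoalign and mm9, and the counting program and annotation are not given in the sources used here. The highest of a gene's 4 deposited values is never under 2. Of 12024 entries, 84 shared a name and were averaged. Depth was estimated from genes whose values in the 4 libraries stood in whole-number ratios, 21 of which gave the same depth. The ratios first put JMJD1B-/- replicate 1 at 0.698 of WT replicate 1, and this was halved to 0.349 because its read numbers in all 21 genes were then even. The name of its column carries an added mark (cat) that the sources used here do not explain. Depth is therefore an estimate, and precision from it covers counting error only. Read counts of the genes described were not recovered, so no count test was run.

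The genotypes were compared on log2(RPKM + 0.1) in limma 3.58.1 under R 4.3.3, with a two-sided moderated test, a variance trend and no replicate term. Genes under a mean of 0.5 RPKM were left out, and p-values were adjusted by Benjamini-Hochberg across the other 11863. Fold changes are on the log2(RPKM + 0.1) scale. An exact permutation test of 2 against 2 libraries cannot go below p = 0.333. Genes were named if called at an unadjusted p under 0.05, if highest in WT or among the 2 with the lowest p of a complex, if they hold a redox or catalytic centre, encode alternative forms of a subunit or are no subunit, or if lowest in p in another list. The genes and lists were chosen with earlier results of these data known. Sequences come from RefSeq promoters on GRCm38.p6, another build than that of the reads. Tables and figures came from pandas 2.3.3, numpy 2.4.6 and matplotlib 3.10.9 under Python 3.11.15.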

Additional observations from a re-analysis of the deposited data

How the results depend on the processing

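A pseudocount of 1 or 0.01, testing all genes without a minimum level, or a minimum mean of 1 RPKM left 15 oxidative phosphorylation genes higher and 1 lower, the same 16 as reported. Median-ratio scaling gave 19 and 1 with all 16 kept, and quantile normalization 15 and 1 with 15 kept (without Atp5f1). Over all genes, 452 were higher and 751 lower (62.4% of calls lower), and under quantile normalization 666 and 714 (51.7%). The 80-gene median went from 0.28 to 0.21. limma without a trend gave 7 higher and 1 lower (2.92% and 6.47% of all genes), and the gene-by-gene test 5 higher and 2 lower (2.93% and 4.32%). Leaving out 1 library gave 2 to 41 higher, 1 to 10 lower and a median of 0.09 to 0.44. Without JMJD1B-/- replicate 2, 11 of the 16 were still called, without WT replicate 1, 3 (Atp5e, Atp5g1 and Ndufb4), and without WT replicate 2, 13. In fits without 1 library the lone library is assumed to vary like the other group. Where counts moved, the cause was not tested.

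With a replicate block, 22 genes were higher and 2 lower (4.81% and 7.70% of all genes), 4 of them at an adjusted p under 0.05 (limma), and all 16 were kept. The labels do not say that a replicate number marks a shared animal or day, and whether it does was not tested. Over all genes tested, the deviations of libraries with the same number correlated at -0.054, a value that cannot settle this for single genes. Replicate 2 was nonetheless the higher of its pair in 61 of the 80 genes in WT and 68 in the knockout (6006 and 7779 of all 11863), and the eosinophil genes Prg2 and Epx were higher in replicate 1 of both genotypes.

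Of the other genes of the pathway, 3 were higher and 1 lower. Median-ratio scaling gave 7 and 2 (5.31% and 6.32% of all genes), quantile normalization 8 and 2 (5.61% and 6.02%) and the replicate block 5 and 3. Of these genes none were lower without a trend or gene by gene (0 in each), and leaving out 1 library gave 0 to 33 higher and 0 to 11 lower. The 33 were without JMJD1B-/- replicate 1, where 10.6% of all genes were higher.

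Under quantile normalization 62 of the 80 log2 fold changes were above 0, against 67. Sign changes were listed only for the 43 of the 80 genes that the text names by its rule, and there the sign changed in Atp5a1 (-0.19), Atp5b (-0.07) and Atp5g3 (-0.01). Among these 43, leaving out 1 library gave ranges across 0 in Atp5a1 (-0.09 to 0.14), Atp5g2 (-0.77 to 1.05), Atp5g3 (-0.20 to 0.36), Cox4i1 (-0.13 to 0.44), Cox5a (-0.19 to 0.17), Cox6b2 (-0.25 to 1.24), Ndufs8 (-0.18 to 0.13), Ndufv1 (-0.04 to 0.29) and Sdha (-0.25 to 0.43), and also in the X-linked Ndufa1 (-0.52 to 0.34) and Ndufb11 (-0.68 to 0.29). The depth of JMJD1B-/- replicate 1, 6100000 reads, limits the precision of its values more than in the others.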
